A study of Homo sapiens with 12 samples.

Results

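The mRNAs of 10 proteins of the large (60S) subunit of the cytosolic ribosome were followed through pull-downs of Staufen1 and through polysome fractions of HEK293T cells, a human embryonic kidney line. The genes were RPL3, RPL5, RPL7A, RPL8, RPL10A, RPL11, RPL12, RPL13A, RPL19 and RPLP0. Each was found by position, as the poly(A) sites on its strand within 1000 nt of its 3' end in hg19. The windows held 80 of the 640413 sites in the pull-down data and 59 of the 189010 sites in the fractionation data. All 10 genes had at least 50 reads in every library of both sets, so none was left out. Except where a sum is named, values are those of the site with the most reads in each window.

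For the pull-downs, STAU1-KO cells (clone C8, made with Cas9 nickase) transiently expressed STAU1-FLAG or, as an unrelated tagged protein, FLAG-GFP. Anti-FLAG pull-down RNA (IP) and total lysate RNA (input) were sequenced by 3'READS+, which reads the last stretch of poly(A)+ RNA, so each read marks the 3' end of 1 transcript and levels need no correction for length. The groups were STAU1 IP, STAU1 input, GFP IP and GFP input, with 2 replicates each, and both inputs lacked endogenous STAU1 by label. For the fractions, polysomal and cytoplasmic RNA of STAU1-KO cells and of the isogenic control (clone C9, wild type) was sequenced, with 1 library each. Each genotype is thus 1 clone, and the labels do not say whether replicates came from separate cultures, so every p-value speaks only of how far these libraries spread. The level of the STAU1 transcript and marker genes of the line were not analysed here. Sites carry coordinates and no gene names, and 3' end positions were at hand only for the 10 genes.

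Staufen1 is a double-stranded-RNA-binding protein that associates with mRNAs and ribosomes and takes part in mRNA decay, transport and translation. Ribosomal protein mRNAs are short, abundant and made in step with one another. They begin with a terminal oligopyrimidine (TOP) tract, a C followed by an unbroken run of pyrimidines, through which LARP1 and mTOR signalling hold them off or admit them to polysomes. Their many processed pseudogenes carry nearly the same sequence, and the handling of reads that match several places is not stated, so the split of reads between a gene and its copies is uncertain.

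Because a TOP tract is the feature by which these mRNAs are known, the annotated starts are shown first. Starts from RefSeq (GRCh38.p14) were at hand for 8 of the 10 genes. RPL5 and RPL8 had no entry. Each line gives 10 bases before and 20 bases from the first transcribed base, and capitals mark the run of C or T that starts at that base. RPL11 and RPL19 have 2 listed starts, of which the one with the longer run is shown.
RPLP0: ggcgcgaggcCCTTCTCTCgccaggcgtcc
RPL12: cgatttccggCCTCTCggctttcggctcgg
RPL10A: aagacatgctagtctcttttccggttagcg
RPL11: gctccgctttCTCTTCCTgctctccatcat
RPL3: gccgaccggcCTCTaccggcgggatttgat
RPL7A: attccctttcCTTTCTCTCTCCTCCCgccg
RPL13A: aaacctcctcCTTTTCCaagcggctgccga
RPL19: agctctttccTTTCgctgctgcggccgcag

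The run was at least 4 bases long in 7 of the 8 genes and reached 16 bases in RPL7A. That of RPL19 starts with T and so lacks the first C of a TOP tract. RPL10A had no run at its listed first base, and a stretch of 10 pyrimidines began 2 bases further on. A run of 4 or more stood at 7 of the 10 listed starts of these genes, against 7.19% of all 35116 listed starts. The cut of 4 equals the shortest run in these genes. A run of 5 or more stood at 5 of their starts, against 5.17% of all. For 7 or more it was 4, against 2.63%. The starts lie at 120201111 on the minus strand of chromosome 12 (RPLP0), 127451406 on the minus strand of chromosome 9 (RPL12) and 35468401 on the plus strand of chromosome 6 (RPL10A). The others are at 23691806 on the plus strand of chromosome 1 (RPL11), 39319623 on the minus strand of chromosome 22 (RPL3), 133348218 on the plus strand of chromosome 9 (RPL7A), 49487608 on the plus strand of chromosome 19 (RPL13A) and 39200323 on the plus strand of chromosome 17 (RPL19).

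Pull-down libraries held between 5727812 and 6212606 reads for the STAU1 IP, between 5567893 and 9655646 for the STAU1 input, 1245270 and 1291888 for the GFP IP, and 7636541 and 8932299 for the GFP input. STAU1 input replicate 1 stood apart by its reads at 99156 sites, against 151066 to 182819 in the other inputs, and each call below that is lost without it is named. The fraction libraries held between 2799226 and 3483937 reads. The 10 genes together took between 1.37% and 1.47% of the STAU1 IP reads, between 2.43% and 2.62% of the STAU1 input, between 1.69% and 1.85% of the GFP IP and between 2.41% and 2.60% of the GFP input.

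Most of these 10 mRNAs had lower scaled levels in the anti-FLAG pull-down than in the lysate, whichever protein carried the tag. In the STAU1 IP over its input 7 of 10 were called lower and 0 higher (edgeR quasi-likelihood test; at an unadjusted p under 0.05, 8 lower and 0 higher, and by DESeq2 8 and 0). Of all 33744 tested sites 2.99% were called lower and 3.06% higher. At an unadjusted p under 0.05, 2943 of these sites were lower and 3520 higher. DESeq2 called 3.63% lower and 4.57% higher. Among the 2235 sites with an average log2 CPM of at least 6, where all 10 genes lay, 19.6% were lower and 17.7% higher. In the GFP IP over its input 7 were called lower and 0 higher (unadjusted, 9 and 0, and by DESeq2 7 and 1), against 3.99% lower and 2.11% higher over all tested sites, and 28.0% and 12.1% over the abundant ones. At an unadjusted p under 0.05, 3464 of all tested sites were lower and 2138 higher in the GFP IP. DESeq2 called 3.97% lower and 3.63% higher there. The genes called lower in both pull-downs by edgeR numbered 6: RPL7A, RPL10A, RPL11, RPL12, RPL19 and RPLP0. The median log2 change of the 10 was -1.14 with STAU1 and -1.05 with GFP, against 0.12 and -0.16 over all tested sites and -0.01 and -0.27 over the abundant ones. The value was below 0 for all 10 genes with STAU1, except that RPL3 stood at 0.04 with library totals and RPL13A at 0.01 without STAU1 input replicate 2, and for 9 with GFP, the exception being RPL3. Among all calls the share that was higher depended on scaling: it was 50.6% with STAU1 and 34.5% with GFP by TMM, and 62.9% and 61.7% by library totals.

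**Figure D1:**
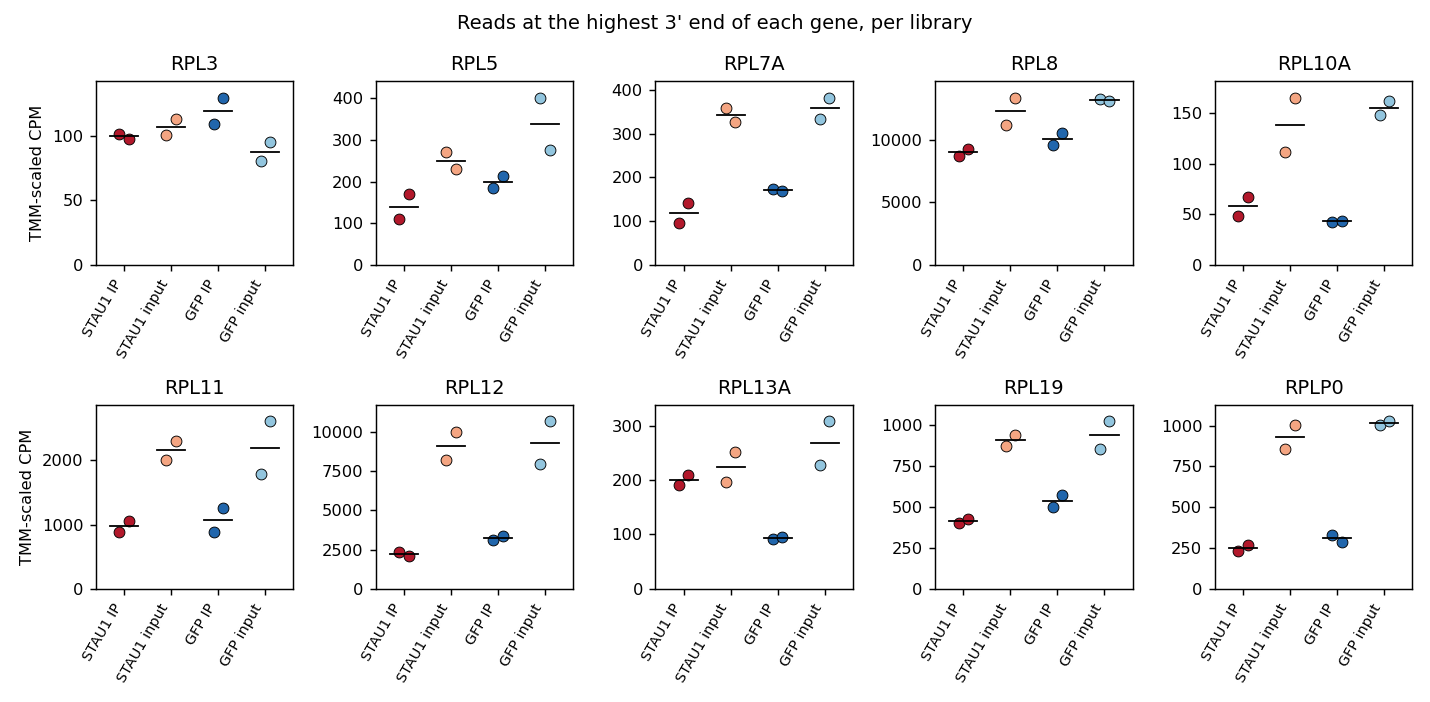
TMM-scaled CPM at the highest 3' end of each gene (y axes from 0, one scale per gene) in the 8 pull-down libraries, with replicates as points and their mean as a line. The IP points lie below their own input points except for RPL3 and, with STAU1, RPL13A. The share of all tested sites with such a split was not counted.

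The 2 proteins at the base of the ribosomal stalk, which recruits translation factors, had mRNAs that were among the lowest in the pull-downs. RPLP0, the anchor of the acidic stalk proteins, has its main 3' end at 120634510 on the minus strand of chromosome 12. In TMM-scaled counts relative to library size (CPM), it had 231 and 269 CPM in the STAU1 IP against 860 and 1002 in the STAU1 input. In the GFP IP it had 330 and 288 CPM, against 1002 and 1026 in the GFP input. Neither pull-down overlapped its input. Here and for the genes below, such a split can arise by chance with 2 libraries a group. Its share among all tested sites was not counted. The log2 changes were -1.90 ± 0.18 with STAU1 and -1.71 ± 0.18 with GFP (SE, n = 2 libraries a group; edgeR, Benjamini-Hochberg adjusted p = 3.15e-06 and 9.84e-06). RPL12, which sits beside RPLP0 at the factor-binding centre, ends at 130209955 on the minus strand of chromosome 9. It had 2328 and 2058 CPM in the STAU1 IP against 8254 and 10031 in the STAU1 input. With GFP the pull-down gave 3107 and 3394 CPM, against 7956 and 10692 in its lysate. This was the lowest STAU1 value of the 10 (-2.06 ± 0.17, edgeR adjusted p = 5.80e-07), with -1.52 ± 0.17 for GFP (edgeR adjusted p = 1.41e-05). Both genes kept both calls in each of the 14 alternative analyses.

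RPL10A, the protein of the mobile L1 stalk at the exit side of the ribosome, was the lowest of the 10 in the GFP pull-down. Its main 3' end is at 35438557 on the plus strand of chromosome 6. It had 48.5 and 67.5 CPM in the STAU1 IP against 111 and 165 in the STAU1 input. The GFP IP held 42.9 and 43.7 CPM, against 148 and 162 in the matching input. The groups did not overlap, and the log2 changes were -1.25 ± 0.25 and -1.84 ± 0.27 (edgeR adjusted p = 0.00369 and 0.000223). The STAU1 call was lost without STAU1 IP replicate 1 (-1.03, edgeR adjusted p = 0.0585) and, narrowly, without STAU1 input replicate 2 (-0.95, edgeR adjusted p = 0.0500).

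RPL5 and RPL11 enter the subunit together with a small ribosomal RNA and, when free, bind MDM2. RPL11 ends at 24022905 on the plus strand of chromosome 1. It had 889 and 1055 CPM in the STAU1 IP against 2009 and 2305 in the STAU1 input. In the GFP IP it had 885 and 1265 CPM, against 1783 and 2607 in the GFP input. It was lower by both tests (-1.15 ± 0.20 with STAU1 and -1.03 ± 0.20 with GFP; edgeR adjusted p = 0.00142 and 0.00327). The GFP call was lost without GFP IP replicate 1 (-0.80) and without GFP input replicate 2 (-0.70). RPL5 (chromosome 1, plus strand, 93307480) had 110 and 171 CPM in the STAU1 IP against 271 and 230 in the STAU1 input. With GFP the pull-down gave 185 and 214 CPM, against 401 and 276 in its lysate. Its groups did not overlap either, but only the STAU1 change passed (-0.84 ± 0.24, edgeR adjusted p = 0.0415, against -0.77 ± 0.24 and 0.0690 with GFP). The GFP change of RPL5 passed in 5 of the 14 alternatives: with a replicate block (-0.77, edgeR adjusted p = 0.0238), no filter (-1.20), without STAU1 IP replicate 1 or replicate 2 (-0.77 each) and without GFP input replicate 2 (-0.98). It was -0.43 when GFP input replicate 1 was left out. The STAU1 call was lost without STAU1 IP replicate 1 (-0.55), STAU1 input replicate 1 (-0.71) or replicate 2 (-0.96), GFP IP replicate 1 (-0.84) or replicate 2 (-0.83), and with library totals (-0.70).

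The proteins closest to the peptidyl transferase centre, RPL3 and RPL8, had mRNAs that passed the test in neither pull-down. RPL8 (chromosome 8, minus strand, 146015155) was the most abundant of the 10 and ranked 5 among all tested sites. It had 8719 and 9284 CPM in the STAU1 IP against 11182 and 13347 in the STAU1 input. The GFP IP held 9598 and 10507 CPM, against 13275 and 13125 in the matching input. No group overlapped its input, but the changes of -0.45 ± 0.14 and -0.39 ± 0.14 did not pass (edgeR adjusted p = 0.0659 and 0.119). The STAU1 change of RPL8 passed in 7 of the 14 alternatives: with RLE factors (-0.42, edgeR adjusted p = 0.0332), a replicate block (-0.44, 0.0358), no filter on low counts (-0.66), DESeq2 (-0.42), without STAU1 input replicate 1 (-0.57) and without either GFP input replicate (-0.44 each). Its GFP change passed in 1, without the filter (-0.83). RPL3 (chromosome 22, minus strand, 39708888) had 102 and 97.7 CPM in the STAU1 IP against 101 and 113 in the STAU1 input, which overlapped (-0.10 ± 0.22, edgeR adjusted p = 0.860). It was the 1 gene with higher values in the GFP IP, at 109 and 130 CPM, than in the GFP input, at 80.8 and 95.2. That difference of 0.44 ± 0.22 missed the threshold (edgeR adjusted p = 0.343), and its sign was kept in all 14 alternatives, 2 of which called it.

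Among the remaining proteins, RPL7A, a relative of the kink-turn-binding proteins, and RPL19, which reaches toward the small subunit, were called lower in both pull-downs. RPL7A (chromosome 9, plus strand, 136218280) had 94.9 and 142 CPM in the STAU1 IP against 359 and 326 in the STAU1 input. In the GFP IP it had 174 and 168 CPM, against 333 and 382 in the GFP input. Its log2 changes were -1.53 ± 0.21 and -1.06 ± 0.21 (edgeR adjusted p = 0.000154 and 0.00407). RPL19 (chromosome 17, plus strand, 37360973) had 399 and 424 CPM in the STAU1 IP against 872 and 938 in the STAU1 input. With GFP the pull-down gave 496 and 571 CPM, against 855 and 1021 in its lysate. Its changes were -1.14 ± 0.17 and -0.81 ± 0.17 (edgeR adjusted p = 0.000390 and 0.00612). Both genes kept the STAU1 call in all 14 alternatives. The GFP call of RPL7A was lost without GFP IP replicate 1 (-1.09) or replicate 2 (-1.03). That of RPL19 was lost without GFP IP replicate 1 (-0.72), with GFP input replicate 2 left out (-0.65) and with library totals (-0.50).

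RPL13A was called lower with GFP and not with STAU1. Its protein can leave the ribosome after phosphorylation and silence inflammatory mRNAs. Its main 3' end lies on chromosome 19, plus strand, at 49995562, where it had 192 and 210 CPM in the STAU1 IP against 198 and 252 in the STAU1 input, which overlapped. The GFP IP had 91.2 and 94.8 CPM against 229 and 309 in the GFP input, with no overlap. The STAU1 change was -0.16 ± 0.21 (edgeR adjusted p = 0.733) and the GFP change -1.53 ± 0.22 (edgeR adjusted p = 0.000224, a call kept in all 14 alternatives).

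**Figure D2:**
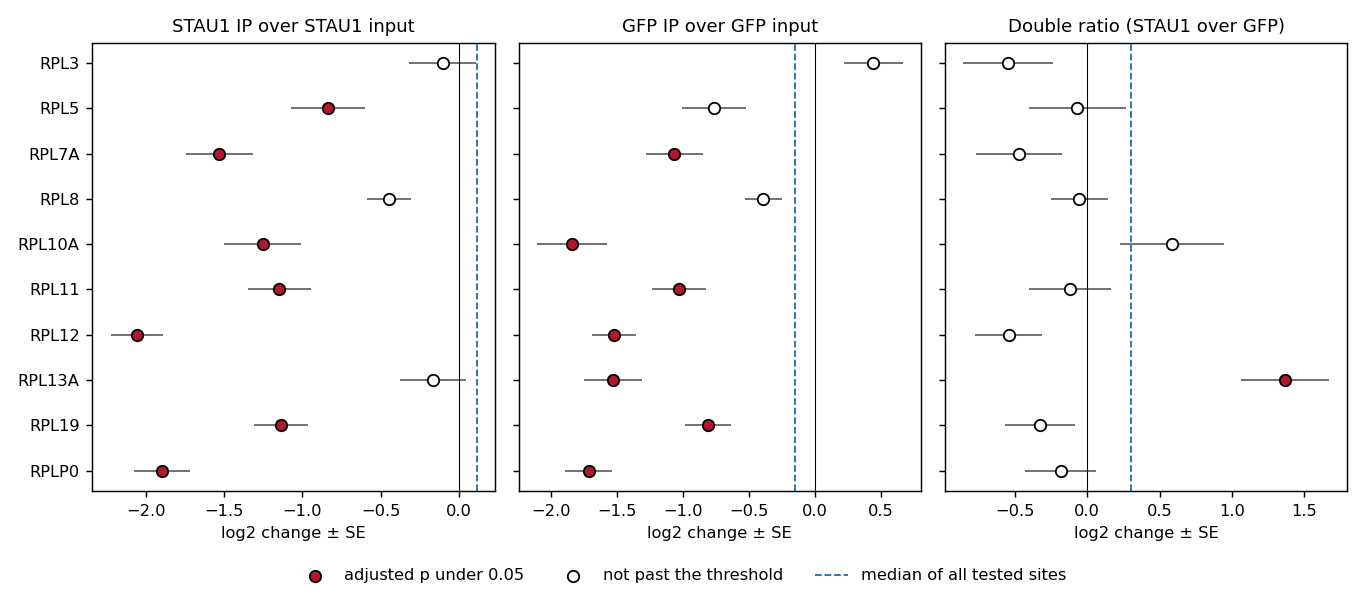
Log2 change ± SE (x axes) of each gene for STAU1 IP over input, GFP IP over input and the double ratio, with filled points past an adjusted p of 0.05 and the dashed line at the median of all tested sites. All 10 genes lie below 0 with STAU1, 9 with GFP, and only RPL13A passes in the double ratio.

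To set the pull-downs against each other, each gene's change with STAU1 was divided by its change with GFP. This double ratio was called higher for 1 of the 10, RPL13A, and lower for 0 (edgeR; unadjusted, 1 and 1, and by DESeq2 1 and 1). Of all tested sites 0.53% were called higher and 0.157% lower, and of the abundant ones 5.19% and 1.21%. At an unadjusted p under 0.05, 2531 of the 33744 tested sites were higher and 1225 lower. DESeq2 called 1.31% higher and 0.957% lower. By library totals the higher share of those calls was 57.8%, against 77.2% by TMM. For RPL13A the log2 double ratio was 1.37 ± 0.30 (SE; edgeR adjusted p = 0.0441). The call was lost without STAU1 IP replicate 2 (1.30), STAU1 input replicate 1 (1.20), GFP IP replicate 1 (1.34) or replicate 2 (1.39) and GFP input replicate 2 (1.12). It was also lost with the sum of the window (1.18, edgeR adjusted p = 0.0925) and with library totals (1.20, 0.0556), and the adjusted p over the 14 alternatives lay between 0.000436 and 0.273. Each of the 14 values was positive.

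The other 9 double ratios lay between -0.54 and 0.59. RPL12 (-0.54 ± 0.23, edgeR adjusted p = 0.381), RPL3 (-0.54 ± 0.31, 0.555) and RPL7A (-0.47 ± 0.30, 0.615) had the lowest, and RPL10A (0.59 ± 0.36, 0.596) the highest. RPLP0 stood at -0.18 ± 0.25, RPL19 at -0.32 ± 0.24, RPL11 at -0.12 ± 0.28, RPL5 at -0.07 ± 0.33 and RPL8 at -0.05 ± 0.20, and the signs of RPL5, RPL8, RPL11 and RPLP0 turned without the filter on low counts. DESeq2 called RPL12 lower (-0.67, DESeq2 adjusted p = 0.0116). The median of the 10 was -0.15, against 0.30 over all tested sites and 0.18 over the abundant ones.

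Between the lysates no difference passed the test for these genes, which does not show that they were equal. STAU1 input over GFP input was called higher for 0 and lower for 0 of the 10 (edgeR; 0 and 0 at an unadjusted p under 0.05 and by DESeq2), against 0.00889% of all tested sites higher and 0.0% lower. At an unadjusted p under 0.05, 638 of all tested sites were higher and 717 lower, and DESeq2 called 0.0563% higher. The log2 values of the 10 genes ran from -0.44 ± 0.23 (RPL5) to 0.28 ± 0.22 (RPL3), with a median of -0.08. The 2 inputs overlapped in 8 genes. RPL3 was above and RPL5 below without overlap. With 2 libraries a group such a split can arise by chance, and its share among all tested sites was not counted.

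Each of these genes has 1 dominant 3' end. The main site took at least 97.3% of the window's reads, pooled over the 8 pull-down libraries, in every gene but RPL13A, where it took 89.3%. Single libraries went lower: RPL10A had 85.7% in GFP IP replicate 2 (60 of 70 reads) and RPL7A 90.6% in STAU1 IP replicate 1. Over the fraction libraries the lowest share was again RPL13A's, 92.6%. Its second site lies 462 nt upstream, at 49995100, and held most of the rest. The main site took 93.2% and 91.8% of RPL13A reads in the STAU1 IP against 90.0% and 88.2% in the STAU1 input. With GFP it took 86.8% and 75.6% in the IP, against 88.8% and 88.3% in its lysate. RPL13A shares in the STAU1 IP lay above all 4 inputs and those in the GFP IP below them, and this difference was not tested. GFP IP shares also lay below all 4 inputs for RPL10A (85.7% and 96.9%) and RPL19 (94.1% and 95.5%), as did their STAU1 IP shares. The lowest RPL13A share rested on 130 of 172 reads, with a 95% Wilson interval of 68.6% to 81.4% (counting error alone).

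The upstream RPL13A site had 8.50 and 15.7 CPM in the STAU1 IP against 16.1 and 26.6 in the STAU1 input. The GFP IP held 12.4 and 25.5 CPM, against 23.0 and 35.3 in the matching input. Neither change passed (-0.83 ± 0.44 and -0.62 ± 0.46, edgeR adjusted p = 0.321 and 0.551), and its double ratio was -0.21 ± 0.64. Of the 10 lesser sites that entered the test, in 6 genes, 1 was called in any contrast, against 2.11% of all tested sites called higher and 3.99% called lower in the GFP IP, so that 1 call is no result about these genes. This was the RPL19 site 154 nt upstream of the main end, at 37360819, named here after its values were seen. It had 20.7 and 26.2 CPM in the GFP IP against 5.54 and 5.90 in the GFP input (2.03 ± 0.53, edgeR adjusted p = 0.0241), where the main end was lower. In the STAU1 IP it had 7.73 and 7.58 CPM against 9.33 and 5.79 in the STAU1 input, which overlapped. The GFP IP counts behind it were 30 and 36 reads.

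In the fractions the question was how far each mRNA was carried on polysomes and whether that differed without STAU1. With 1 library a group there is no test. Values in brackets are 95% intervals from the read counts alone. The highest site of RPL5 was here at 93307476 and that of RPL7A at 136218266, which differ from their pull-down positions. The ratio of polysomal to cytoplasmic RNA differed widely among the 10 genes. With TMM scaling the interval of its log2 value lay below 0 for 7 genes in KO cells and 5 in WT cells. It lay above 0 for 2 and 4. The median of the 10 was -0.50 in KO cells and -0.03 in WT cells. Over the 4766 sites that had 50 or more reads in all 4 libraries it was -0.01 and -0.02. The share of those sites with an interval off 0 was not counted. Values past 1.5-fold lower were seen in 4 genes in KO cells and 2 in WT cells, against 13.1% and 15.7% of those sites. Values past 1.5-fold higher were seen in 1 gene in each, against 9.65% and 12.4%. RPL8 and RPL13A lay at the limit in KO cells, and with RLE factors 2 genes, RPL11 and RPL12, were past it. With library totals 1 gene, RPL12, was past 1.5-fold lower in each genotype, against 7.66% of sites in KO cells and 8.27% in WT cells. The same scaling put 2 genes past 1.5-fold higher in KO cells, RPL5 and RPL10A, and 4 in WT cells, RPL5, RPL10A, RPL13A and RPLP0, against 20.2% and 25.5%. Scaling by library totals moved the median of all sites to 0.21 in KO cells and 0.24 in WT cells. It shifts every site of a comparison by the same log2 amount. The distance of the 10 genes' median from that of all sites, -0.49 and -0.01, therefore could not change. Library totals put RPL19 in WT cells, whose interval lay below 0 by TMM, at 0.16.

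RPL5 and RPL10A were richer in polysomes in both genotypes. RPL5 had 2101 TMM-scaled CPM in polysomes against 1388 in cytoplasm in KO cells, and 2410 against 1456 in WT cells, a log2 ratio of 0.60 (0.55 to 0.65) in KO cells and 0.73 (0.67 to 0.78) in WT cells. RPL10A had 312 against 220 CPM in KO cells and 306 against 219 in WT cells, with ratios of 0.50 (0.37 to 0.64) and 0.48 (0.33 to 0.63). At the other end, RPL12 had 42.1 CPM in polysomes against 85.6 in cytoplasm in KO cells and 50.9 against 109 in WT cells, with ratios of -1.02 (-1.30 to -0.74) and -1.10 (-1.38 to -0.82). These RPL12 values rested on 161 and 262 reads in KO cells and 153 and 285 in WT cells. RPL12 was also far lower in cytoplasm than in the pull-down inputs, as given below. Its ratios here may not count the same reads as its pull-down values. RPL8 had 7263 against 10969 CPM in KO cells and 6598 against 10092 in WT cells, with ratios of -0.59 (-0.62 to -0.57) and -0.61 (-0.64 to -0.59). RPL3, with 64.6 against 91.2 CPM in KO cells and 68.3 against 88.2 in WT cells, stood at -0.50 (-0.74 to -0.25) and -0.37 (-0.64 to -0.10).

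**Figure D3:**
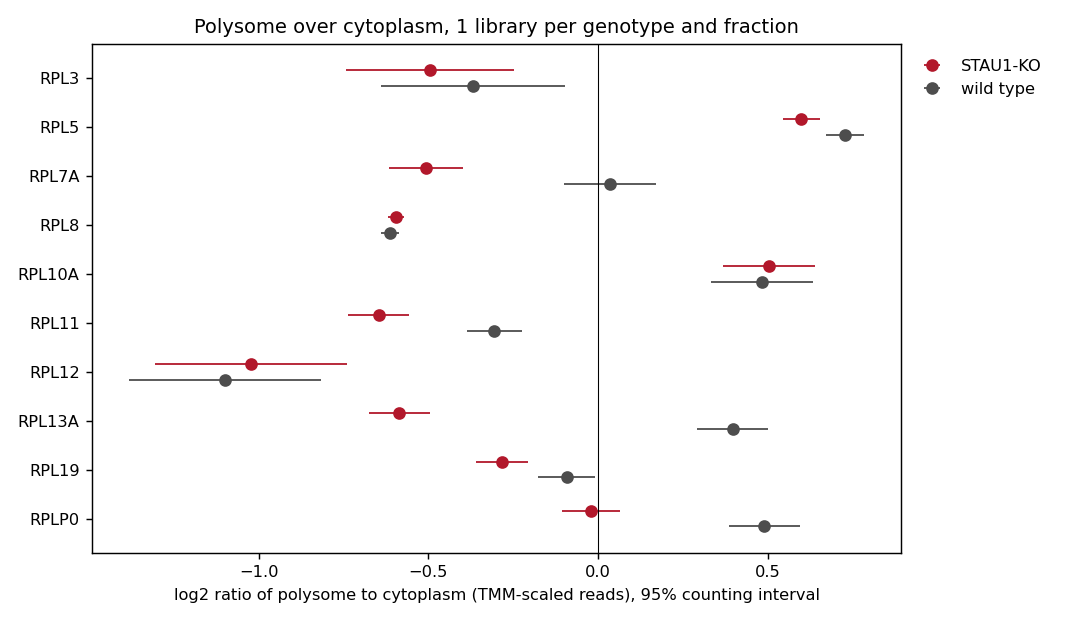
Log2 ratio of polysomal to cytoplasmic reads (x axis) for each gene in STAU1-KO and wild-type cells, with 95% counting intervals. RPL13A lies at -0.59 in KO cells and 0.40 in WT cells, while RPL8 lies at -0.59 and -0.61 and RPL10A at 0.50 and 0.48.

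In 6 genes, RPL5, RPL7A, RPL11, RPL13A, RPL19 and RPLP0, the polysome ratio was lower in KO than in WT cells by an interval below 0. The share of the 4766 sites with such an interval was not counted, so the 6 cannot be set against all sites. The median difference was -0.16 over the 10 genes and 0.01 over those sites. RPL13A differed most. It had 479 CPM in polysomes against 720 in cytoplasm in KO cells, and 608 against 462 in WT cells. Its ratio was -0.59 (-0.68 to -0.50) in KO cells and 0.40 (0.29 to 0.50) in WT cells, a difference of -0.98 (-1.12 to -0.84). Both fractions differed: RPL13A was higher in KO cytoplasm than in WT cytoplasm (0.64, 0.54 to 0.74) and lower in KO polysomes than in WT polysomes (-0.34, -0.44 to -0.25). A difference past 1.5-fold lower was seen for RPL13A alone among the 10, against 5.81% of the 4766 sites, and past 1.5-fold higher for 0, against 6.38%. With library totals RPL7A also passed that limit, at -0.59. In bulk RNA a change in the number of cells that carry a transcript and a change in its amount per cell cannot be told apart.

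RPL7A had 333 against 474 CPM in KO cells and 316 against 308 in WT cells, a polysomal difference of 0.08 (-0.04 to 0.20) and a cytoplasmic one of 0.62 (0.49 to 0.74). The difference of ratios was -0.54 (-0.72 to -0.37). RPLP0 had 637 against 646 CPM in KO cells and 627 against 446 in WT cells, a cytoplasmic difference of 0.53 (0.43 to 0.64) and a difference of ratios of -0.51 (-0.65 to -0.37). RPL11 was lower in KO cells in both fractions, with 456 CPM in KO against 807 in WT polysomes (-0.82, -0.91 to -0.74) and 714 in KO against 998 in WT cytoplasm (-0.48, -0.57 to -0.40). Its difference of ratios was -0.34 (-0.46 to -0.22). RPL19 differed by -0.19 (-0.30 to -0.08) and RPL5 by -0.13 (-0.21 to -0.05), while for RPL3, RPL8, RPL10A and RPL12 the interval of the difference held 0.

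In cytoplasm 2 of the 10 were past 1.5-fold higher in KO cells, RPL7A and RPL13A, and 0 past 1.5-fold lower, against 9.5% and 9.8% of all sites. RPLP0 joined them with library totals (0.61). In polysomes 0 were past 1.5-fold higher and 1, RPL11, past 1.5-fold lower, against 6.69% and 6.92%. The median of KO over WT over the 10 genes was 0.08 in cytoplasm and -0.08 in polysomes.

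The levels of the 10 mRNAs could also be set side by side between the lysates of the pull-down experiment and the cytoplasm of the fractionation. The 2 tables were made and scaled separately, so no test was made, and values are the summed reads of a window as CPM of the library total. RPL8 stood first in both, with 11201 to 12243 in the 4 inputs and 9062 to 10389 in the 2 cytoplasmic libraries. RPL12 was second in the inputs, with 7335 to 9328, and ninth in cytoplasm, with 81.4 to 98.8, so the median of the inputs was 96.6 times the mean of the cytoplasm. The main RPL12 site had the same hg19 position in both tables, while that of RPL5 was at 93307480 in the pull-downs and 93307476 in the fractions. RPL5 ran the other way, with 209 to 370 in the inputs and 1308 to 1314 in cytoplasm, a ratio of 0.195. In the other 8 genes this ratio lay between 0.422 (RPL13A) and 2.61 (RPL11).

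**Figure D4:**
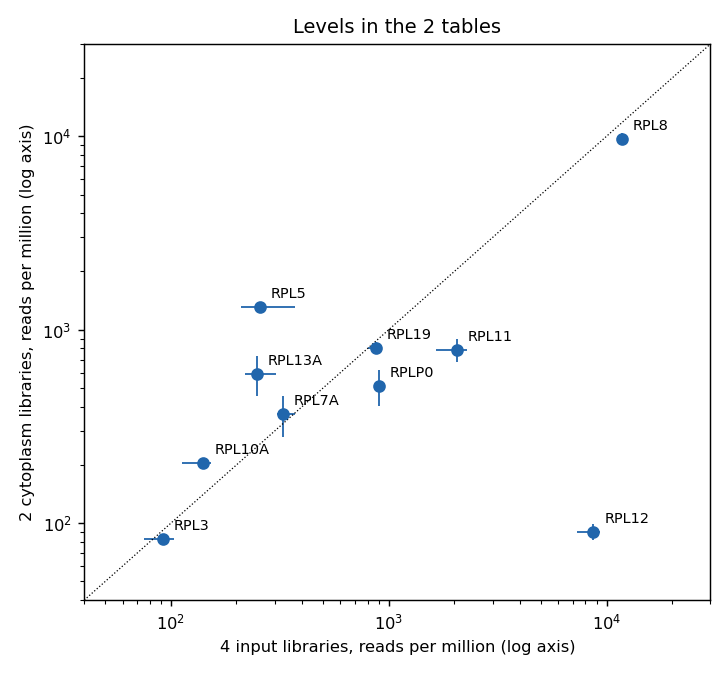
Summed window CPM of the library total for each gene, as the median and range of the 4 input libraries (x axis, log) and the mean and range of the 2 cytoplasm libraries (y axis, log), with a dotted line of equality. RPL12 lies far below the line and RPL5 above it, while RPL3, RPL7A, RPL8 and RPL19 lie close to it.

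In the inputs the order of the median levels was RPL8, RPL12, RPL11, RPLP0, RPL19, RPL7A, RPL5, RPL13A, RPL10A and RPL3. The ranges of neighbours overlapped for RPLP0 and RPL19, for RPL7A and RPL5, and for RPL5 and RPL13A, and the other neighbours were separate over the 4 libraries. The sources used here do not state whether both tables treat reads that match several places alike, so the RPL12 pull-down and polysome values may not count the same reads. The cause of the RPL12 and RPL5 differences between the tables was not tested.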

How the data were processed

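Reads came from 3'READS+ libraries; the aligner STAR and the build hg19 are named per the submitters' processing notes, without settings. The authors deposited, per library, raw counts of reads at each poly(A) site, in 1 table for the pull-downs and 1 for the fractions. How sites were clustered and multiply mapping reads handled is not stated. The members, their windows and the tests were chosen with earlier results of these data known, and all 10 members are named.

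edgeR 4.0.16 (R 4.3.3) was fitted to the pull-down counts by quasi-likelihood with 1 mean per group, TMM scaling and the filterByExpr filter; 8 libraries in 4 groups left 4 residual degrees of freedom. P-values were adjusted by Benjamini-Hochberg over all 33744 tested sites, with a threshold of 0.05. The code was tested on simulated data. Alternatives were RLE factors, library totals, no filter, DESeq2 1.42.0, a replicate block, window sums and each library left out. Fractions were compared as log2 ratios of TMM-scaled counts with a pseudocount of 0.5 reads. Reads carry no molecular identifiers, so intervals leave out PCR error.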

Additional observations from a re-analysis of the deposited data

Results flagged for a closer look

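RPL13A was picked out by the test of the difference between the pull-downs: its log2 double ratio of 1.37 passed the threshold (edgeR adjusted p = 0.0441), since its main 3' end was lower in the GFP IP than in the GFP input (-1.53) and near its input in the STAU1 IP (-0.16). It kept its sign in all 14 alternatives and its call in 7 of them.

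RPL13A was also picked out in the fractions, where its polysome to cytoplasm ratio lay on opposite sides of 0 in KO cells (-0.59) and WT cells (0.40). The difference of -0.98 was not tested, since each value comes from 1 library per fraction.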

How the results depend on the processing

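Leaving out 1 library at a time, the number of the 10 genes called lower lay between 5 and 8 for STAU1 IP over input and between 4 and 8 for GFP IP over input, the 4 without GFP IP replicate 1. The number called higher in the double ratio was 0 or 1, and no gene was called between the inputs. The lone library of a group was then assumed to vary like the other groups. Calls over all tested sites also changed with the library left out, as given below. These counts are therefore no measure of the 10 genes alone. A replicate block gave 8 lower with STAU1, 8 lower with GFP and 1 higher in the double ratio. Over all tested sites the block called 3.53% lower with STAU1, 4.76% lower with GFP and 1.15% higher in the double ratio. The labels number the replicates without naming a shared source, and deviations of same-numbered libraries correlated at -0.06 between STAU1 IP and STAU1 input, 0.08 between GFP IP and GFP input, 0.20 between the IPs, 0.17 between the inputs, -0.31 between STAU1 IP and GFP input and -0.00245 between STAU1 input and GFP IP, so the numbers were not taken to pair the libraries. With window sums 0 genes were higher in the double ratio, against 0.528% of all sites, and with library totals also 0, against 0.394%. Library totals gave 1 higher in the GFP IP (RPL3), against 3.59% of all sites. DESeq2 called the same gene, against 3.63%. It also called 1 lower in the double ratio (RPL12), against 0.957%.

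Library totals moved the median over all sites to 0.26 with STAU1 and 0.13 with GFP, and the members' polysome medians to -0.29 in KO cells and 0.23 in WT cells. They turned the sign of RPL3 with STAU1 (0.0369), RPL19 polysome over cytoplasm in WT cells (0.16) and RPL5, KO over WT in cytoplasm (0.00741). Without the filter all 640413 sites were fitted and double ratios turned for RPL5 (0.16), RPL8 (0.17), RPL11 (0.10) and RPLP0 (0.0399). Between the inputs the small values turned for RPL7A, RPL11, RPL12 and RPL19 with RLE factors (0.00667, 0.0401, 0.0338 and 0.0130), library totals (0.0344, 0.0699, 0.0634 and 0.0414) and DESeq2 (0.00624, 0.0401, 0.0338 and 0.0128). With 1 library left out, the log2 change ran from -0.33 to 0.00707 for RPL13A with STAU1. Double ratios ran from -0.42 to 0.22 for RPL5, from -0.18 to 0.0301 for RPL8 and from -0.44 to 0.16 for RPL11. Between inputs, values ran from -0.14 to 0.0630 for RPL7A, from -0.18 to 0.0159 for RPL8, from -0.42 to 0.0929 for RPL10A, from -0.24 to 0.30 for RPL11, from -0.19 to 0.22 for RPL12 and from -0.14 to 0.11 for RPL19. None of the turned pull-down values was called. The RPL19 and RPL5 fraction values had no test. By TMM their counting intervals lay below 0, from -0.18 to -0.01 for RPL19 and from -0.13 to -0.01 for RPL5. The cause of the turns was not tested. Depth was lowest in the GFP IP libraries, at 1291888 and 1245270 reads.

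Over all tested sites the double ratio gave 179 higher and 53 lower calls, against 441 and 323 by DESeq2, 389 and 123 with the block, 307 and 48 without the filter, 154 and 96 with RLE factors, 133 and 97 with library totals, and between 17 and 390 higher and between 5 and 111 lower with 1 library left out, fewest without GFP IP replicate 1. GFP IP over input gave 711 higher and 1348 lower, against 1211 and 751 with library totals, 1224 higher by DESeq2, 205 higher without the filter, and 271 higher and 413 lower without GFP IP replicate 1. STAU1 IP over input gave 1032 higher and 1008 lower, against 319 higher without the filter, 443 higher without STAU1 input replicate 1 and 546 higher and 564 lower without STAU1 IP replicate 1. A TMM set from sites with at least 10 reads in each fraction library, chosen after seeing the data, moved each single fraction value by less than its counting interval. Past 1.5-fold lower in polysomes over cytoplasm of KO cells it left 2 of 4 genes, RLE factors left 2 and library totals 1. Library totals gave 2 genes past 1.5-fold higher in KO cells, 4 higher and 1 lower in WT cells, and 2 lower in the difference of KO and WT ratios.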
